A study of Homo sapiens with 19 samples.

Results

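The erythroid transcription factors described here are 10 genes, taken by symbol from the exon and gene-body count tables: GATA1, TAL1, KLF1, LMO2, NFE2, GFI1B, ZFPM1, MYB, LDB1 and RUNX1. They are 10 of 58051 human genes in these tables, and all 10 passed the filter on low counts in both fits. Total RNA was sequenced from K562, an established human erythroleukaemia line grown without treatment, as whole cells and as subcellular fractions. There were 4 rRNA-depleted libraries for each of whole cell, cytoplasm, nuclear wash and nucleus, and 3 further libraries of nuclear wash for which rRNA depletion was omitted. Every group is the same untreated line, so the groups differ by fraction and library preparation and not by genotype. Whether replicates are separate cultures is not in the labels, so the p-values reflect spread among libraries that may be technical only. In bulk RNA such as this, fewer cells of a type and less RNA per cell cannot be told apart.

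Erythroid genes are controlled by a small set of DNA-binding factors and cofactors, some of which work in one complex. GATA1, a zinc-finger protein, sits on DNA beside TAL1, a helix-loop-helix protein, and the bridging proteins LMO2 and LDB1 hold the pair together and bring distant enhancers to promoters. ZFPM1, also called FOG1, is a GATA1 cofactor that does not itself need to touch DNA. KLF1 drives adult globin and other red-cell genes, NFE2 binds the globin enhancers with small Maf partners, and GFI1B represses genes as the lineage matures. MYB keeps precursors dividing, and RUNX1 is needed for the first blood stem cells and for platelet-forming cells. RNA of such genes is made in the nucleus with introns, spliced and exported, so each factor has an exon signal and an intron signal in every fraction.

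Exon counts per library ran from 1373755 to 7955415 with depletion and from 923464 to 1801293 without it, so the depth behind a factor varied several-fold between libraries. Of 6 landmark transcripts, the nuclear RNAs MALAT1 and NEAT1 were higher in the nucleus than in the cytoplasm, by 4.24 and 2.88 on the log2 scale, and ACTB, GAPDH and MT-CO1 were lower. The sixth, the mRNA of the chaperone HSPA5, was also higher in the nucleus, by 0.48 (edgeR adjusted p = 0.00958), with overlapping libraries. The summed level of 6 genes that define K562, fetal globins and TFRC among them, was 1780 to 1940 CPM (counts scaled to a fixed library total, here with no further factor) in the nucleus and 3450 to 4740 in the cytoplasm, with none at 0. Of these, 5 were lower in the nucleus, such as HBG2 with a mean of 379 CPM against 2940. TFRC was higher there, at 1200 against 447, and made up most of the nuclear sum. Of 6 lymphoid markers, CD79A and MS4A1 were at 0 in all cytoplasm and nucleus libraries, while the list summed to 48.9 to 83 CPM in the cytoplasm and 169 to 232 in the nucleus, nearly all of it PTPRC. The 5 myeloid markers summed to 7.66 to 57.6 CPM over the depleted libraries, with MPO at 0 in whole cell, wash and nucleus. The 5 epithelial markers summed to 223 to 947 CPM, carried by keratins and EPCAM, with CDH1 at 0 in the cytoplasm, and the 5 fibroblast and endothelial markers to 15.1 to 62.5. The part of these transcripts in the results below was not tested.

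On GRCh38 the genes lie at chrX:48786554-48794311 (GATA1), chr1:47216290-47232220 (TAL1), chr19:12884422-12887199 (KLF1), chr11:33858576-33892289 (LMO2) and chr12:54292111-54301121 (NFE2). GFI1B lies at chr9:132944000-132991687, ZFPM1 at chr16:88453317-88537016, MYB at chr6:135181315-135219173 and LDB1 at chr10:102107560-102120453. GATA1, GFI1B, ZFPM1 and MYB are on the plus strand and the others on the minus strand. KLF1 is the most compact, with exons over 57.99% of its span, while exons cover 1.28% of that of RUNX1.

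Levels of the factors are CPM with libraries scaled by the TMM method, which sets the typical gene equal between libraries. Per kilobase of exon in whole cells, MYB stood highest at 54.5 ± 0.641 CPM per kb (SD, n = 4). GATA1 followed at 52.6 ± 5.73 and NFE2 at 44.5 ± 7.66, and these neighbours did not differ beyond their spread. LDB1 was next at 30 ± 3.79 CPM per kb. TAL1 at 16.4 ± 1.19, LMO2 at 15 ± 2.12 and KLF1 at 13.6 ± 4.62 overlapped each other. RUNX1 had 8.11 ± 3.09, GFI1B 4.11 ± 0.853 and ZFPM1 3.97 ± 0.816 CPM per kb, the last pair again indistinguishable. These levels divide by the union of all annotated exons. With the length of the longest transcript, RUNX1 was at 17.4 CPM per kb, above KLF1 at 13.6. MYB was then at 81.5, NFE2 at 59.9 and GATA1 at 52.7, while GFI1B was at 8.3 and ZFPM1 at 4.51. The order and the likeness of these neighbours thus depend on the length used. The order changed with the fraction. In the cytoplasm GATA1 led at 87.7 ± 13.9 CPM per kb, before NFE2 at 55.6 ± 4 and MYB at 49.1 ± 3.25. By the longest transcript these 3 were closer there, at 87.9, 74.9 and 73.5 CPM per kb. In the nucleus MYB led at 63.9 ± 1.95, before NFE2 at 32.1 ± 3.52, LDB1 at 26.5 ± 2.11 and GATA1 at 20 ± 1.58.

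**Figure D1:**
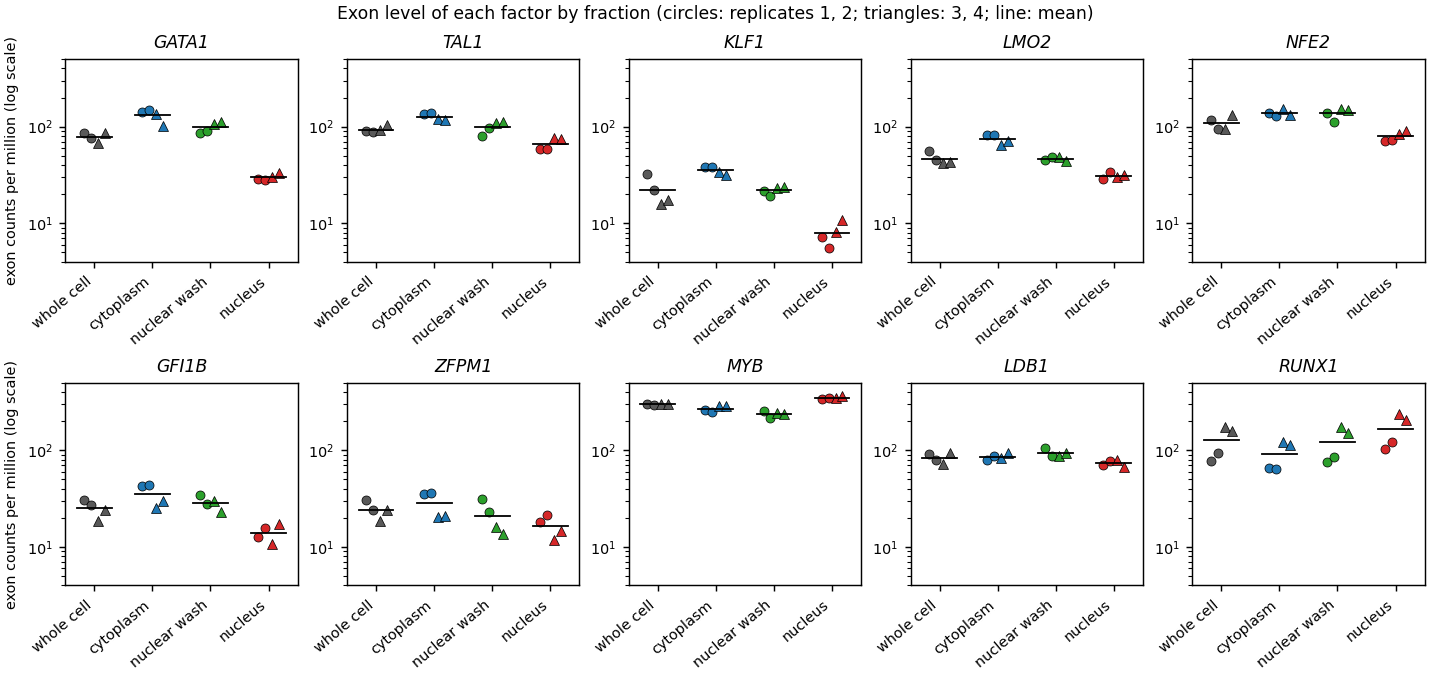
Exon CPM (log axis) of the 10 factors in each of the 16 depleted libraries by fraction, with circles for replicates 1 and 2, triangles for replicates 3 and 4 and a line at the group mean. GATA1 and KLF1 drop furthest in the nucleus, MYB is highest there (with spike-in scaling its difference from the cytoplasm is -0.25), and the circles and triangles of RUNX1 separate in every fraction.

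The comparison of nucleus with cytoplasm asks where the exon reads of each factor lay. Exon reads come from unspliced RNA as well as from finished message, so they do not place the finished message alone. In the nucleus, intron reads were per base about as dense as exon reads for GATA1, ZFPM1 and LMO2 (117, 118 and 110%). Exon reads of 7 factors were lower in the nucleus, those of MYB and RUNX1 were higher, and LDB1 was not called. With libraries scaled by the spike-in transcripts instead, the value of MYB turned to -0.25 and that of RUNX1 was 0.31, and neither was called, while the median of all genes moved from 0.03 to -0.6. A call is an adjusted p under 0.05 in the quasi-likelihood test of edgeR over 15940 genes, and 76.8% of all genes were called in this comparison, 39.3% higher and 37.5% lower. The count of 9 called factors is thus near what most genes showed. The factors' median log2 fold change was -0.86, beside 0.03 over all genes. All genes here include other kinds than protein-coding ones, which were 11290 of those tested. The shift is not particular to these factors. Medians were -0.79 for partners and cofactors, -1.13 for other haematopoietic transcription factors and -1.04 for erythroid target genes, lists described below. Libraries of both groups did not overlap for 7 of the 10, beside 71.4% of all genes. All fold changes are relative to the typical gene and do not measure amounts of RNA per cell.

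Among the DNA-binding core, GATA1 had 143.4, 147.2, 134.3 and 101.3 CPM in the cytoplasm and 28.69, 27.84, 30.46 and 33.21 in the nucleus. Every nuclear library lay far below every cytoplasmic one, a 4.39-fold difference with a log2 fold change of -2.13 (SE 0.145, edgeR adjusted p = 3.02e-11). KLF1 had 38.68, 38.53, 33.83 and 31.7 CPM in the cytoplasm and 7.173, 5.498, 8.159 and 10.9 in the nucleus. The groups were again apart, by -2.19 (SE 0.219, edgeR adjusted p = 1.14e-08), although the nuclear values rest on only 16 to 30 exon counts per library. TAL1, with 135.3, 136.8, 120.2 and 115.9 CPM in the cytoplasm and 58.28, 59.11, 76.15 and 73.68 in the nucleus, fell by 0.93 (SE 0.13). NFE2, with 138.2, 129.2, 150.8 and 130.7 CPM in the cytoplasm and 71.73, 72.17, 83.76 and 89.24 in the nucleus, fell by 0.79 (SE 0.136). Neither overlapped between fractions.

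Of the bridging proteins and cofactors, LMO2 had 81.12, 82.64, 63.98 and 70.58 CPM in the cytoplasm and 28.69, 34.02, 29.92 and 31.65 in the nucleus, a log2 fold change of -1.26 (SE 0.128, edgeR adjusted p = 1.39e-08) with no overlap. LDB1, its partner in the complex, had 79.14, 87.94, 82.36 and 94.16 CPM in the cytoplasm and 70.38, 78.01, 79.68 and 67.45 in the nucleus. These ranges touch, and the difference of -0.21 (SE 0.119) was not called, with an edgeR adjusted p of 0.107. Without a composition factor LDB1 was 0.41 higher in the nucleus (adjusted p = 0.00491), where the median of all genes was 0.64. Leaving out nuclear wash replicate 1 moved it to -0.26 with an adjusted p of 0.0473. ZFPM1 had 35.5, 36.09, 20.3 and 20.77 CPM in the cytoplasm and 17.93, 21.31, 11.69 and 14.53 in the nucleus. Its fraction ranges overlap, as replicates 1 and 2 stood above 3 and 4 in both, and its change of -0.79 (SE 0.263, edgeR adjusted p = 0.0101) lost its call without nucleus replicate 3 (-0.61, adjusted p = 0.0594). The repressor GFI1B, with 42.45, 43.54, 25.44 and 29.82 CPM in the cytoplasm and 12.55, 15.81, 10.61 and 17.12 in the nucleus, fell by 1.35 on the log2 scale (SE 0.214).

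MYB and RUNX1 went the other way. MYB had 258.6, 250.9, 285 and 285.3 CPM in the cytoplasm and 340.7, 350.5, 346.5 and 365.8 in the nucleus, higher in every nuclear library by 0.38 on the log2 scale (SE 0.097, edgeR adjusted p = 0.00136), but at -0.25 with spike-in scaling. The call was lost without the filter on low counts (0.23, adjusted p = 0.203). RUNX1 had 65.45, 64.17, 120.8 and 114.5 CPM in the cytoplasm and 102.7, 120.6, 238.8 and 207.5 in the nucleus. In both fractions replicates 3 and 4 lay above replicates 1 and 2, so the ranges overlap although the nucleus was higher within each pair of replicates, by 0.88 in the whole fit (SE 0.313, edgeR adjusted p = 0.0151). Within the libraries whose column names start with 1 the difference was 0.78 (adjusted p = 0.000251), and within those that start with 2 it was 0.94 (adjusted p = 7.95e-08). The pooled call was lost without cytoplasm replicate 1 (0.75, adjusted p = 0.0501), cytoplasm replicate 2 (0.7, adjusted p = 0.0621) or nucleus replicate 3 (0.68, adjusted p = 0.0693).

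**Figure D2:**
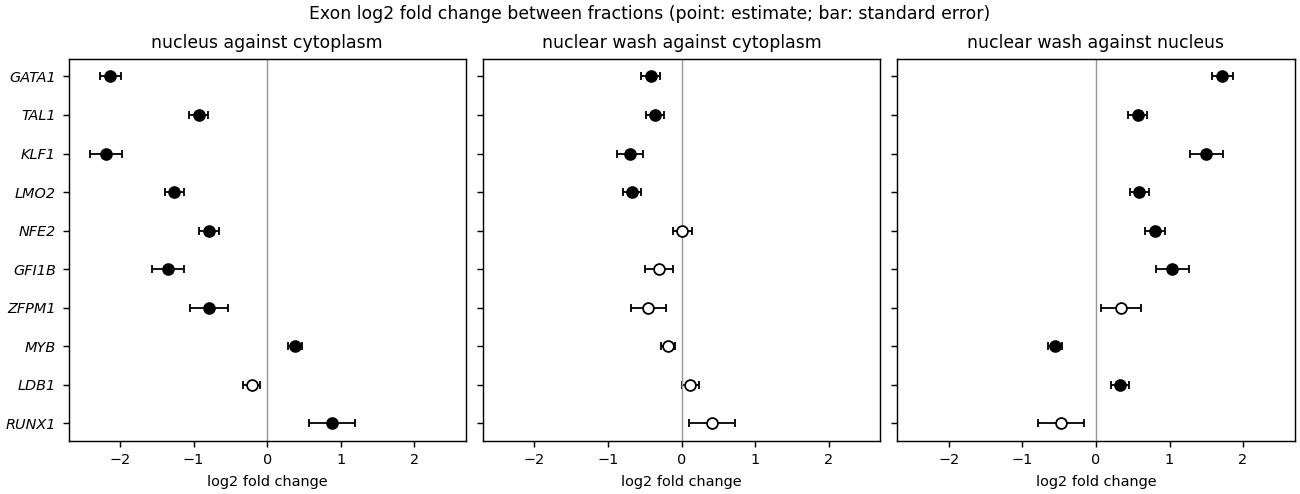
Exon log2 fold change of each factor, as point and standard error, for nucleus against cytoplasm, nuclear wash against cytoplasm and nuclear wash against nucleus, with filled points for called differences. In the first panel KLF1 at -2.19 and GATA1 at -2.13 lie furthest left and RUNX1 at 0.88 and MYB at 0.38 lie right of 0, a side MYB leaves with spike-in scaling (-0.25).

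MYB and RUNX1 are set side by side here because of their exon reads in these data. For 2 genes picked in this way a shared transcript feature is a description, and a link to the fractions was not tested. Not every feature grouped them: their transcripts had 14 and 7 introns, beside 10 each in GFI1B and LDB1. GC content and ATTTA copies did. On the principal annotated transcript, their GC contents were the lowest of the 10, at 43.3% and 46.1%, while the other 8 ranged from 53.2% in TAL1 to 69% in ZFPM1, and the median protein-coding gene had 48.4%. Their 3′ untranslated regions (3′ UTRs) were also the richest in ATTTA, the core pentamer of AU-rich elements, which in many messages bind proteins that change RNA decay and transport. MYB held 6 copies, or 5.03 per kb, and RUNX1 18 copies, or 4.15 per kb. LMO2 held 2 copies (2.56 per kb), TAL1 2 (0.58 per kb) and ZFPM1 1 (0.49 per kb), while GATA1, KLF1, NFE2, GFI1B and LDB1 held 0. The search covered ATTTA on the transcribed strand of the 3′ UTR, overlapping copies included, and 69.9% of 11148 tested protein-coding genes held at least 1, with a median of 1.64 per kb. The untranslated regions also differed in length, from 144 bases in GATA1 to 4334 in RUNX1. A match is a description of the letters and shows no use of the site.

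The first and the last copy of each factor that holds any are printed below with 12 bases on each side, as DNA letters of the GENCODE 29 transcript 5′ to 3′ on the gene's strand, with the pentamer in capitals, to show how the surroundings differ between factors.
MYB first: agcaccaagtgcATTTAgttgaatgaagt
MYB last: ttttattcagtaATTTAattttgtaaatg
RUNX1 first: tgaatgcttctgATTTAgcaatgctgtga
RUNX1 last: aaatgtggtcctATTTAagccagccccca
LMO2 first: gaagaaaggaacATTTAggggcaagcagg
LMO2 last: aaccaaacaattATTTAaagcaatgctga
TAL1 first: acttctgtccatATTTAtaggtacccaat
TAL1 last: agcatttgggtaATTTAgattgtaaaccg
ZFPM1 only copy: cactgtgtgtacATTTAaaagtaaactgt
On GRCh38 the MYB windows lie at chr6:135218110-135218138 and chr6:135218586-135218614, plus strand. Those of RUNX1 lie at chr21:34791782-34791810 and chr21:34788221-34788249, minus strand, and those of LMO2 at chr11:33859066-33859094 and chr11:33858755-33858783, minus strand. TAL1 has chr1:47219262-47219290 and chr1:47217461-47217489, minus strand, and ZFPM1 chr16:88536979-88537007, plus strand. The copies of MYB fell between bases 142 and 618 of a 3′ UTR of 1193 bases, and those of RUNX1 between bases 337 and 3898 of 4334.

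**Figure D3:**
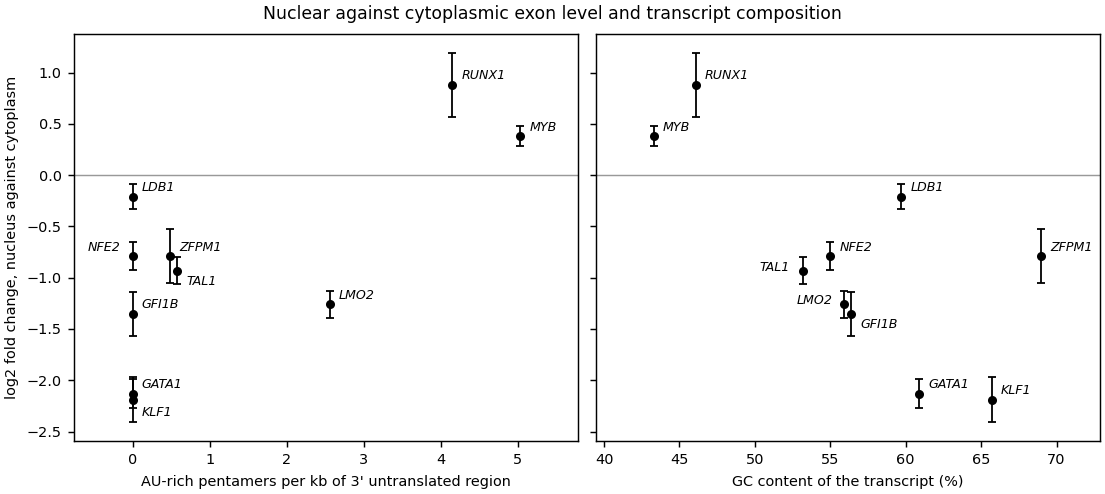
Log2 fold change of exon reads between nucleus and cytoplasm (vertical, with standard error) against ATTTA pentamers per kb of 3′ UTR (left) and transcript GC content in percent (right) for the 10 factors. RUNX1 and MYB, above 0, have 4.15 and 5.03 pentamers per kb and 46.1% and 43.3% GC, and MYB lies at -0.25 with spike-in scaling.

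The labels do not describe how the nuclear wash was made. Against the cytoplasm, 4 factors were called lower in it and none higher, where 44.2% of all genes were called, 22.8% higher and 21.4% lower. The factors' median was -0.33 beside 0.05 over all genes. The lists of partners, other transcription factors and target genes described below had medians of -0.1, -0.22 and -0.16. With spike-in scaling all 10 were called lower, under which the median of all genes was -3.1. Libraries of wash and cytoplasm did not overlap for 3 factors, beside 38.2% of all genes. KLF1 fell by 0.70 (SE 0.18), with wash values of 21.71, 19.15, 23.36 and 23.93 CPM that lay below every cytoplasmic library. LMO2 fell by 0.67 (SE 0.12), with 44.88, 48.88, 48.68 and 44.59 CPM in the wash and no overlap. GATA1 had 84.99, 90.75, 107.5 and 110.5 CPM in the wash, overlapping the lowest cytoplasmic library, and a change of -0.42 (edgeR adjusted p = 0.0133). TAL1 had 79.47, 96.35, 109.1 and 110.9 CPM there, below every cytoplasmic library by -0.36 (edgeR adjusted p = 0.0255). The GATA1 and TAL1 calls rested on part of the libraries: within those whose names start with 2 their values were -0.11 (adjusted p = 0.554) and -0.1 (adjusted p = 0.55). The TAL1 call was also lost without cytoplasm replicate 1 (adjusted p = 0.0696), cytoplasm replicate 2 (adjusted p = 0.0671) or wash replicate 1 (adjusted p = 0.0795). A block for replicate number added calls for ZFPM1 (-0.44, edgeR adjusted p = 0.0109) and RUNX1 (0.38, edgeR adjusted p = 0.00217), the latter at -2.8 with spike-in scaling. Leaving out wash replicate 1 gave ZFPM1 -0.67 with an adjusted p of 0.0316.

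Against the nucleus, 7 factors were higher in the wash and MYB was lower, where 72.1% of all genes were called, 36.7% higher and 35.4% lower. With spike-in scaling, under which the median of all genes was -2.47, all 7 had negative values, and without a composition factor (median -0.61) TAL1 (-0.12), LMO2 (-0.08) and LDB1 (-0.35) did. GATA1 was 3.29-fold higher (log2 1.72, SE 0.145, edgeR adjusted p = 2.01e-09) and KLF1 2.82-fold (log2 1.5, SE 0.227, edgeR adjusted p = 6.27e-06), the largest changes among the 10. GFI1B was 1.04 higher on the log2 scale, with wash values of 34.22, 27.86, 29.96 and 22.7 CPM, NFE2 0.80 higher with 139.4, 112.1, 153.7 and 147.5 CPM, LMO2 0.59 higher and TAL1 0.57 higher. The wash libraries of these 6 factors all lay above the nuclear ones, and with LDB1 and MYB 8 factors did not overlap, beside 62.4% of all genes. MYB had 252.8, 217.3, 243.4 and 237.1 CPM in the wash, below every nuclear library by 0.56 (SE 0.0974, edgeR adjusted p = 3.1e-05). LDB1, with 105.6, 87.17, 87.2 and 93.68 CPM, was called 0.33 higher (edgeR adjusted p = 0.0177), and the call was lost without nucleus replicate 1 (0.29, adjusted p = 0.0594) or nucleus replicate 4 (0.27, adjusted p = 0.0688). ZFPM1, with 31.27, 23.04, 16.23 and 13.7 CPM in the wash, and RUNX1, with 74.68, 84.68, 172.4 and 151, were not called. The block brought RUNX1 to a call, at -0.47 with an edgeR adjusted p of 0.000125.

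Against whole cells, the cytoplasm had 6 factors higher and none lower, where 50% of all genes were called, 22.3% higher and 27.6% lower, while with spike-in scaling all 10 were called lower and the median of all genes was -1.24. GATA1 rose by 0.74 (SE 0.132), from 85.9, 76.57, 67.65 and 85.3 CPM in whole cells, KLF1 by 0.74 (SE 0.182), LMO2 by 0.69 (SE 0.12) and TAL1 by 0.44 (SE 0.126). The whole-cell and cytoplasmic libraries of GATA1, LMO2 and TAL1 did not overlap. Those of MYB were also apart, lower in the cytoplasm, but without a call (-0.15, edgeR adjusted p = 0.211). With MYB, 4 factors were apart, beside 44.8% of all genes. GFI1B (0.51, edgeR adjusted p = 0.0308) and NFE2 (0.32, edgeR adjusted p = 0.0474) overlapped between groups. GFI1B lost its call without cytoplasm replicate 1 or 2 or whole-cell replicate 3 or 4, with adjusted p from 0.0535 to 0.151, and NFE2 without any one of whole-cell replicates 2 and 3, cytoplasm replicates 1 and 3 and the 4 nuclear ones, with adjusted p from 0.0766 to 0.193. RUNX1 was called lower with the replicate block (-0.45, edgeR adjusted p = 0.000366).

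In the nucleus against whole cells, 6 factors were lower, from -1.46 for KLF1 and -1.39 for GATA1 to -0.47 for NFE2, and MYB was higher, where 54.9% of all genes were called, 25.9% higher and 29% lower, while with spike-in scaling MYB stood at -1.64 and the median of all genes at -1.83. MYB had 301, 293.9, 301.5 and 300 CPM in whole cells, a narrow range below every nuclear library (libraries were apart for 48.5% of all genes), and a difference of 0.23 (edgeR adjusted p = 0.0498). That call was lost when any single one of the 16 libraries was left out, with values of 0.2 to 0.24 and adjusted p from 0.0682 to 0.144. The block called ZFPM1 (-0.58, edgeR adjusted p = 0.00389) and RUNX1 (0.4, edgeR adjusted p = 0.00123, but -1.46 with spike-in scaling). Between wash and whole cells MYB was the single called factor (-0.33, SE 0.097, edgeR adjusted p = 0.0113), where 34.4% of all genes were called, 14.6% higher and 19.7% lower. GATA1 and NFE2 stood at 0.33 each, or -4.11 each with spike-in scaling, and both were called with the block, at edgeR adjusted p = 0.0362 and 0.0176.

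Reads in introns, taken as gene-body counts minus exon counts, are used here to describe the unspliced RNA of the same factors. They can also include reads of genes that overlap a factor. All 10 had their highest intronic share in the nucleus and their lowest in the cytoplasm, with no overlap between nucleus and cytoplasm, as did the sum over all genes at 71 ± 1.99% against 12.9 ± 1.34% (SD, n = 4). GATA1 had intronic shares of 83.2, 86.8, 81.6 and 78.1% in the nucleus and 5.37, 6.72, 5.58 and 7.02% in the cytoplasm, a difference of 76.3 percentage points, the widest of the 10. LMO2 had 92.1, 91.1, 92.2 and 90.5% in the nucleus and 28, 24.9, 21.6 and 19.4% in the cytoplasm. ZFPM1 kept the highest share in the cytoplasm, 49.7, 48.8, 52.1 and 51.1%, and had 93.2, 91.7, 94.8 and 94.5% in the nucleus. KLF1 had the lowest nuclear share and the widest spread, 36, 48.4, 30.2 and 22.2%, against 5.34, 5.28, 4.56 and 4.25% in the cytoplasm. The nuclear shares of KLF1 rest on only 6 to 15 intronic counts per library. The other 6 ranged from 44.2% in LDB1 to 90.4% in RUNX1 in single nuclear libraries. Each of these 10 differences gave p = 0.0286 in an exact permutation test, two-sided, the smallest value that 4 libraries against 4 allow. GFI1B and TAL1 share exon sequence with genes on the opposite strand, TSC1 over 349 bases and AL135960.1 over 845 bases, and MYB with MYB-AS1 over 103 bases. No source used here gives the strand setting of the counting, so reads of these partners cannot be told apart. The spans of 3 other factors, but not exon with exon, overlap genes on the opposite strand: NFE2 overlaps AC078778.2, which had 14278 gene-body counts over all libraries, ZFPM1 overlaps AC116552.1 with 2271 and LMO2 overlaps AC132216.1 with 220. The part of these genes in the intronic shares and intron-to-exon ratios of NFE2, ZFPM1 and LMO2 was not tested. GATA1, KLF1 and LDB1 overlap no annotated gene.

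**Figure D4:**
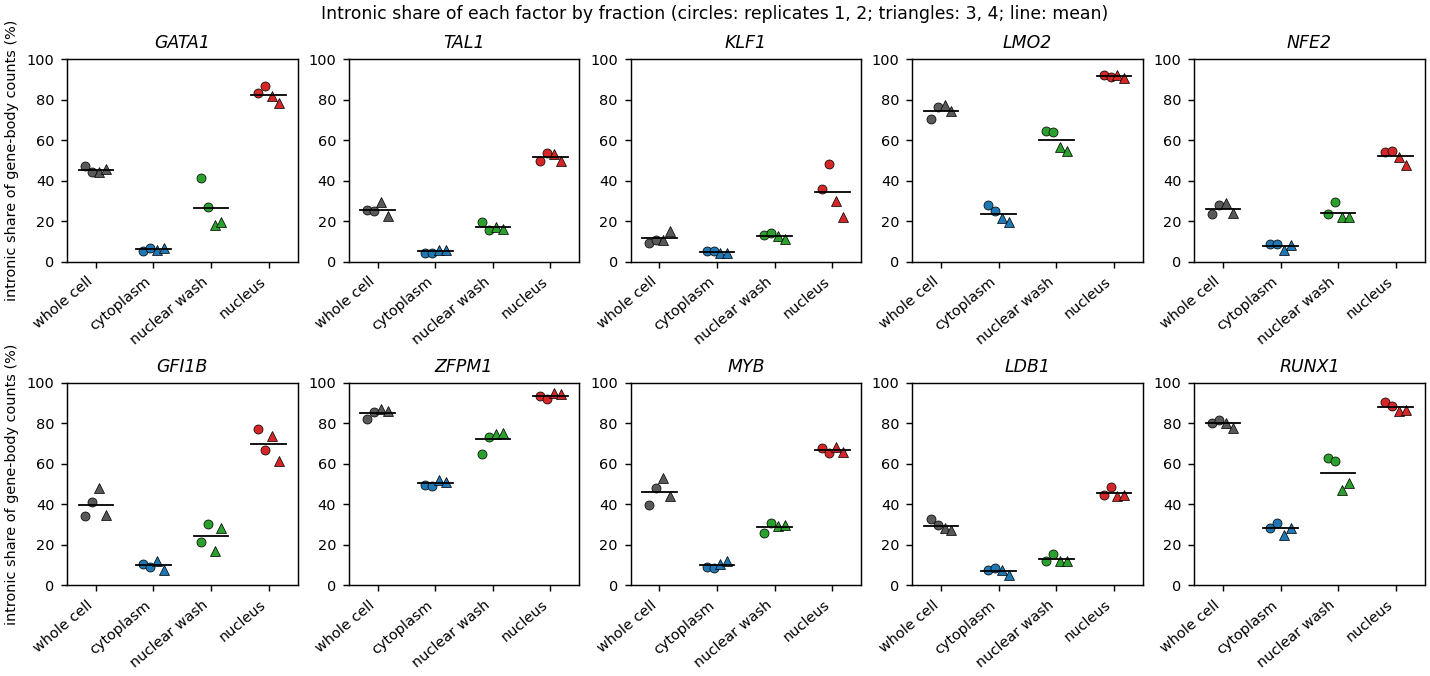
Intronic share of gene-body counts (percent) for each factor in the 16 depleted libraries, with circles for replicates 1 and 2, triangles for replicates 3 and 4 and a line at the group mean. The nucleus lies highest and the cytoplasm lowest for all 10, from 82.4% against 6.17% for GATA1 to 34.2% against 4.86% for KLF1.

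Per base, the introns of 3 factors were covered about as densely as their exons in the nucleus. Intron density, as a percent of exon density, was 118 ± 25.7 for ZFPM1, 117 ± 30.1 for GATA1 and 110 ± 11.5 for LMO2 (SD, n = 4), where the median gene had 41.9. These lie at the percentiles 91.7, 91.5 and 90.3 of 10451 genes. RUNX1 was at the other end with 9.69 ± 1.95, at percentile 4.1, but its annotated span of 1216867 bases at chr21:34787801-36004667 on the minus strand includes far upstream starts, which widen the intron length it is divided by. In the cytoplasm the GATA1 value was 1.58 ± 0.223, below the median gene at 2.76, while ZFPM1 at 8.02 ± 0.469 and KLF1 at 7.05 ± 0.822 lay above it.

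Whether introns moved with exons was tested as an interaction of read type and fraction in edgeR over 10481 genes, which gives the change of the intron-to-exon ratio relative to the typical gene. Between nucleus and cytoplasm the ratio was higher for GATA1, by 2.27 on the log2 scale (SE 0.237, edgeR adjusted p = 3.55e-09), and for LMO2, by 1.22 (SE 0.145, edgeR adjusted p = 3.38e-08). It was lower for LDB1 (-0.48, edgeR adjusted p = 0.0147), and the other 7 were not called, where 72.4% of all genes were, 34.2% higher and 38.1% lower. GATA1 and LMO2, lower in nuclear exon reads, gained more intron reads per exon read there than the typical gene. When whole gene bodies were counted in place of exons, LMO2 (0.41) and ZFPM1 (0.67) stood higher in the nucleus than in the cytoplasm. Without replicate 3 the LDB1 call was lost (-0.42, adjusted p = 0.0769) and NFE2 was called (-0.43, adjusted p = 0.0312), and without replicate 2 KLF1 was called (-0.92, adjusted p = 0.0448). Requiring 1 count in place of 10 gave 6 calls in place of 3, for which the share over all genes is not given.

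The ratio changes below are again relative to the typical gene, so a higher ratio can go with a lower intronic share. Compared with the cytoplasm, the wash had the ratio called higher for 5 factors and lower for LDB1. Here 51.1% of all genes were called, 21.9% higher and 29.1% lower. GATA1 gained 0.96 (SE 0.229, edgeR adjusted p = 0.00113) and LMO2 0.88 (SE 0.139, edgeR adjusted p = 1.13e-05). The calls of TAL1 (0.53), NFE2 (0.49), MYB (0.45) and LDB1 (-0.45) were each lost without some single replicate. TAL1 lost it without replicates 1, 2 or 4, NFE2 without 2 or 3, MYB without 2, 3 or 4 and LDB1 without 1, 2 or 3. Leaving out 1 replicate left 2 to 4 called factors, beside 43.3 to 46% of all genes. Against the nucleus, 67% of all genes were called, 34.7% higher and 32.3% lower. The wash ratio was lower for GATA1 (-1.31, SE 0.222) and LMO2 (-0.34, SE 0.144, but 0.09 without a composition factor). It was higher for NFE2 (0.75, SE 0.132), whose intronic share itself was lower in the wash (24.2%) than in the nucleus (52.1%). The LMO2 value was not called when any 1 replicate was left out, with adjusted p from 0.0663 to 0.348. The wash share of GATA1 varied most between libraries, 41.1, 26.8, 18.3 and 19.5%, with replicate 1 highest. Against whole cells, 48.9% of all genes were called, 28.9% higher and 20% lower. The wash ratio was higher for KLF1 (1.39), NFE2 (1.04) and TAL1 (0.44) and lower for RUNX1 (-0.5). The TAL1 call was lost without replicate 1, 3 or 4. KLF1 rests on 9 to 14 intronic counts per whole-cell library and 9 to 20 in the wash. Its intronic shares there, 11.5 and 12.8%, overlapped, as did those of NFE2 (26.2 and 24.2%). Relative to the typical gene, the cytoplasmic ratio against whole cells was higher for KLF1 (1.27) and NFE2 (0.55). It was lower for GATA1 (-1.06), RUNX1 (-0.74) and LMO2 (-0.68), where 50.2% of all genes were called, 30.1% higher and 20.1% lower. The intronic shares of KLF1 and NFE2 themselves were lower in the cytoplasm, at 4.86 and 7.98%, than in whole cells, at 11.5 and 26.2%. The nuclear ratio against whole cells, where 52.9% of all genes were called, 26% higher and 26.9% lower, was higher for GATA1 (1.21) and LMO2 (0.54) and lower for RUNX1 (-0.44). KLF1, at 0.71, was called there without replicate 4 (1.13, adjusted p = 0.017).

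Column names of the depleted libraries start with 1 for replicates 1 and 2 and with 2 for replicates 3 and 4, and 3 factors differed between these prefixes, where 21% of all genes were called, 10.4% higher and 10.6% lower. RUNX1 was 1.94-fold higher under prefix 2 (log2 0.96, SE 0.0729, edgeR adjusted p = 6.07e-11), with 77.23 and 93.72 CPM against 175.7 and 158.3 in whole cells. Its prefixes did not overlap in any of the 4 fractions, which held in this direction for 4.35% of all genes. ZFPM1 was 1.58-fold lower under prefix 2 (log2 -0.66, SE 0.105, edgeR adjusted p = 3.31e-05), with 30.52 and 24.33 CPM against 18.32 and 23.88 in whole cells, and also apart in all 4 fractions, as were 3.42% of all genes in that direction. GFI1B was 1.32-fold lower (log2 -0.4, SE 0.108, edgeR adjusted p = 0.00845) and apart in 2 fractions. The other 7 factors were not called. The undepleted wash libraries did not enter that fit, but they bear the column prefixes of depleted wash libraries that did. They are thus no separate check of the prefix difference. Their CPM are scaled among the 7 wash libraries, unlike the CPM above. In the undepleted libraries RUNX1 had 39.69 CPM in the single prefix 1 library, beside 95.7 and 64.35 CPM in the prefix 2 libraries. ZFPM1 had 35.15 against 27.85 and 29.45, in the same order, while GFI1B had 36.28 against 25.71 and 38.18, which overlap. The labels do not say what the prefix marks, and what it stands for was not tested.

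**Figure D5:**
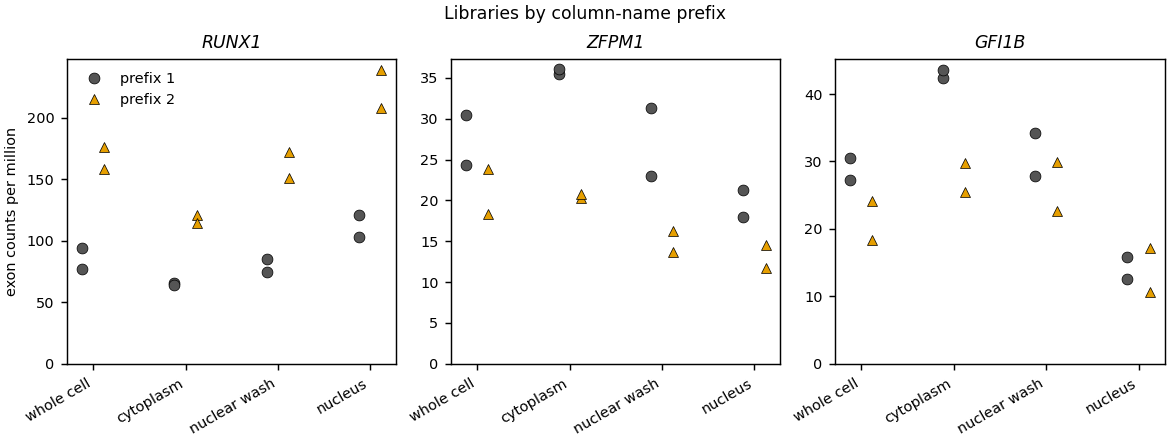
Exon CPM of RUNX1, ZFPM1 and GFI1B in the depleted libraries by fraction, with grey circles for column prefix 1 and orange triangles for prefix 2, 2 libraries each. RUNX1 lies higher and ZFPM1 lower under prefix 2 in all 4 fractions, and GFI1B overlaps in the nuclear wash and the nucleus.

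In the undepleted against the depleted wash, 2 factors were called, both higher, where 11.1% of 11627 genes were called, 7.75% higher and 3.35% lower. ZFPM1 had 35.15, 27.85 and 29.45 CPM, above every depleted library, a log2 fold change of 1.03 (SE 0.299, edgeR adjusted p = 0.0471). LDB1 had 94.11, 107.8 and 103.6 CPM undepleted and 78.1, 62.64, 61.56 and 67.67 depleted, also without overlap. It was 0.60 higher (SE 0.158, edgeR adjusted p = 0.0334). With GFI1B and MYB, which were not called, the libraries of 4 factors were apart, beside 27.3% of all genes. The ZFPM1 call was lost when any 1 library other than depleted wash replicate 1 was left out (0.88 to 1.11, adjusted p from 0.0734 to 0.149), and the LDB1 call when any library other than depleted replicate 1 or undepleted replicate 1 was left out (0.55 to 0.6, adjusted p from 0.0656 to 0.148). With the column prefix as a block and without the depleted library of prefix 1A, 6 factors were called: KLF1 (0.67), GFI1B (0.76), MYB (0.29) and RUNX1 (-0.54) joined them, and 32.2% of all genes were called. Dropping that library without the block gave 3 calls, GFI1B (0.77, edgeR adjusted p = 0.0431) beside ZFPM1 and LDB1. The undepleted libraries held 14 to 295 exon counts of a factor.

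The genes that work with these factors, listed from textbook knowledge, were also compared between nucleus and cytoplasm. The shares over all genes were 39.3% higher and 37.5% lower here, 76.8% in all. Of 30 partners and cofactors, 22 were lower and 3 higher, with a median of -0.79. LYL1, a relative of TAL1, fell by 1.79 (SE 0.167) and TCF3, the usual dimer partner of TAL1, fell by 1.68 (SE 0.143). The coactivator EP300 rose by 1.12 (SE 0.114), from 86.89 ± 6.01 to 188.8 ± 11.4 CPM, and the chromatin remodeller CHD4 by 1.03 (SE 0.169). Of 30 other haematopoietic transcription factors 22 were tested, and 19 were lower and 2 higher, with a median of -1.13. MYBL2, a relative of MYB, fell by 2.49 (SE 0.152) and KLF3, a relative of KLF1, by 1.56 (SE 0.141), whereas SOX6, a globin repressor, rose by 1.75 (SE 0.142) and the homeobox factor MEIS1 by 1.42 (SE 0.174). Of 51 erythroid target genes 48 were tested, and 29 were lower and 9 higher, with a median of -1.04. The globins HBA2, and HBG2, whose near-identical copies HBA1 and HBG1 make their values uncertain, fell by 4.01 (SE 0.627) and fell by 3.56 (SE 0.197), respectively. The blood-group gene KEL rose by 1.85 (SE 0.136). The direction of each gene named here was the same under the scalings tried, although CHD4 was not called with spike-ins (0.4, edgeR adjusted p = 0.074). With spike-in scaling the partners had 1 higher and 26 lower, and without a composition factor 5 higher and 11 lower.

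Between wash and nucleus the partners had 24 higher and 2 lower of 30, the other transcription factors 15 higher and 2 lower of 22 and the target genes 32 higher and 5 lower of 48, where 36.7% of all genes were higher and 35.4% lower, whereas with spike-in scaling 0 genes of these lists were called higher. Without a composition factor the partners had 8 higher and 4 lower, the other factors 4 and 4 and the targets 20 and 10. MTA2, a deacetylase-complex subunit, and MED1, a Mediator subunit, were 1.37 and 1.27 higher in the wash, or -1.19 and -1.26 with spike-ins. MYC, a growth regulator, and MYBL2 were 1.67 and 1.41 higher, or -0.86 and -1.16 with spike-ins. SSBP2, which stabilises LDB1, and the chromatin protein MTA1 were lower, at -0.58 (SE 0.159) and -0.46 (SE 0.125). SOX6 and MEIS1 were also lower, at -1.48 and -0.73. Among the targets HBA2 and HBG2 were 3.6 and 2.79 higher, and the haem-synthesis gene UROS was lower, at -0.8.

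Between wash and cytoplasm the partners had 4 higher and 8 lower, the other factors 1 and 7 and the targets 15 and 15, where 22.8% of all genes were higher and 21.4% lower, again with 0 higher under spike-in scaling. EP300 and CHD4 were higher in the wash by 1.68 (SE 0.114) and 1.63 (SE 0.17), or -1.48 and -1.52 with spike-ins. The Rh glycoprotein gene RHAG and the integrin gene ITGA2B were higher by 1.54 (SE 0.129) and 1.92 (SE 0.333), and MEIS1 by 0.69, all 3 below 0 with spike-ins. SSBP4, a relative of SSBP2, stood at -1 and the methyl-CpG binding protein MBD2 at -0.85. E2F4 and MYBL2, cell-cycle factors, stood at -1.25 and -1.08, and the glycophorin gene GYPC and HBG1 at -1.04 and -1.01.

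Among all tested protein-coding genes, those whose log2 CPM followed each factor most closely over the 16 depleted libraries were found by Pearson's r. The 16 points share fractions, replicates and scaling, and r is given as a description. The genes named were picked for their high r. The median r over all these genes was 0.346 for GATA1, 0.305 for TAL1, 0.309 for KLF1, 0.279 for LMO2 and 0.344 for NFE2. It was 0.287 for GFI1B, 0.122 for ZFPM1, -0.32 for MYB, 0.225 for LDB1 and -0.131 for RUNX1. PRPF19 was closest to GATA1 (r = 0.995), PYCR1 to TAL1 (0.985), SPATC1L to KLF1 (0.978), MRGBP to LMO2 (0.974) and MCM7 to NFE2 (0.963). PHLDA2 was closest to GFI1B (0.966), with GATA2 next (0.952), INF2 to ZFPM1 (0.886), PRPF6 to LDB1 (0.882), SECISBP2 to MYB (0.959) and ALDH1L2 to RUNX1 (0.973). Between the factors, GATA1 and KLF1 were most alike (0.955), MYB was furthest from GATA1 (-0.81) and RUNX1 from ZFPM1 (-0.897).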

How the data were processed

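Both deposited tables hold raw read counts per gene and library, one over exons and one over whole gene bodies, per the file headers and the whole-number values. Tools listed in the submitters' processing notes are STAR 2.7.0a, cutadapt 2.5 and featureCounts 1.6.2, with the build hg38. No source used here gives the annotation release or the strand setting of the counting. Per the labels' protocols, total RNA libraries were stranded and yeast spike-ins were added, in amounts that are not stated. Positions, lengths and transcripts come from GENCODE release 29 on GRCh38, in which 57447 of 58051 identifiers matched, and the 10 factors were found by symbol.

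Exon counts were tested with edgeR 4.0.16 in R 4.3.3 (filterByExpr, TMM, quasi-likelihood, Benjamini-Hochberg over all genes, threshold 0.05), with the 16 depleted libraries in one fit and the 7 wash libraries in another. The 11 spike-in transcripts were left out. The SE of a log2 fold change is its size over the root of the F statistic. Intron counts are gene-body minus exon counts, set to 0 where negative, which they were in 55942 of 1102969 gene-library values, and the ratio test needed 10 counts of each kind in 4 libraries. CPM and shares are computed here. Scripts were tested on simulated data. Alternatives were DESeq2 1.42.0, other scalings, filters and designs, and each library left out.

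The labels state no pairing of libraries, so the main fit has no replicate block, and calls that a block changed are given beside it. All 24 correlations of deviations between same-numbered libraries exceeded 0.1 (0.104 to 0.379), but only 11 were the best of their library. Whether the difference between column prefixes gives these correlations was not tested, so they do not settle a pairing. The factors and lists were chosen with earlier results of these data known. Named list genes are the 2 called members with the largest change each way whose mean CPM reached 5, given here for 3 comparisons, and a gene that this rule names is not reported here. Likeness takes the nearest protein-coding genes by r of log2 CPM (prior count 2). Reads carry no stated molecular identifiers.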

Additional observations from a re-analysis of the deposited data

Results flagged for a closer look

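LDB1 had an intronic share of 15.5% in nuclear wash replicate 2, beside 11.9 to 12.2% in the other 3 wash libraries. The same replicate number stood out for LDB1 in the nucleus, at 48.3% beside 44.2 to 44.7%. In both groups the gap to the nearest library exceeded Dixon's critical share of the group's range. The CPM and the intronic share of each factor in each fraction were checked, 80 sets of 4 libraries in all, of which 2 stood out, and chance alone gives about 1 in 20.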

How the results depend on the processing

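Exon counts of KLF1 in the nucleus (16 to 30 per library) and of all factors in the undepleted wash limit precision. So do the intronic counts of KLF1, 6 to 20 per depleted library. Fold changes assume that the typical gene is equal between fractions, and because the spike-in amount per sample is not stated, the spike-in values cannot be read as amounts. Of the nuclear against cytoplasmic results, the directions of GATA1, TAL1, KLF1, NFE2 and GFI1B held in all alternatives run. With spike-in library sizes MYB turned to -0.25 there. Between wash and cytoplasm 10 factors were called, with NFE2 at -3.18, LDB1 at -3.05 and RUNX1 at -2.8. Against the nucleus the wash values were -0.85 for GATA1, -2 for TAL1, -1.07 for KLF1, -1.94 for LMO2, -1.77 for NFE2, -1.48 for GFI1B, -2.14 for ZFPM1 and -2.2 for LDB1. In the cytoplasm against whole cells 10 were called, with -0.48 for GATA1, -0.79 for TAL1, -0.48 for KLF1, -0.53 for LMO2, -0.93 for NFE2, -0.7 for GFI1B, -0.98 for ZFPM1 and -1.21 for LDB1. In the nucleus against whole cells MYB stood at -1.64 and RUNX1 at -1.46. Between wash and whole cells 10 were called, with -4.11 for GATA1, -4.35 for TAL1, -4.38 for KLF1, -4.38 for LMO2, -4.11 for NFE2, -4.19 for GFI1B and -4.26 for LDB1, and between the wash preparations 0 were called. With spike-in scaling the median of all genes lay between -0.6 and -4.51 in the comparisons of fractions, beside -0.1 to 0.06 with TMM. The share of calls that were higher went from 51.2 to 34.7% with spike-ins and to 69.5% without a composition factor between nucleus and cytoplasm, and between wash and nucleus from 50.9% to 0.127 and 25.4%. It went from 44.7 to 0 and 19.7% between cytoplasm and whole cells, from 47.2 to 0 and 70.4% between nucleus and whole cells (58.1% with RLE factors, 57.3% with DESeq2) and from 42.6 to 0 and 15.7% between wash and whole cells. Between wash and cytoplasm it went from 51.6 to 0.0202% with spike-ins, and between the wash preparations from 69.8 to 10% without a composition factor.

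Without a composition factor LDB1 turned to 0.41 between nucleus and cytoplasm. Between wash and nucleus TAL1 turned to -0.12, LMO2 to -0.08 and LDB1 to -0.35, with 5 factors called in place of 8. In the nucleus against whole cells 4 were called in place of 7. The wash ratio of introns to exons against the nucleus turned to 0.09 for LMO2 and 0.38 for RUNX1, with 7 called in place of 3. With whole gene bodies counted, LMO2 was 0.41 and ZFPM1 0.67 between nucleus and cytoplasm, -0.51 and -0.65 between wash and nucleus, and -0.07 and -0.7 between cytoplasm and whole cells, and LMO2 was 0.35 between nucleus and whole cells. The cause was not tested for these.

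For wash and whole cells, where 1 factor was called, DESeq2, RLE factors and leaving out mitochondrial and rRNA genes each gave 3, whole gene bodies 8, the replicate block and the prefix as a term (added after seeing the data) 3, prefix 1 alone 0, prefix 2 alone 5, the compared groups alone 0, and leaving out 1 library 1 to 3. For wash and cytoplasm the compared groups alone gave 2 in place of 4. Between the wash preparations, with 2 called, leaving out mitochondrial and rRNA genes or dropping the low-count filter gave 1, leaving out 1 library 0 to 3, and the replicate block by prefix, which also drops the depleted library of prefix 1A, 6, while dropping that library without the block (added after seeing the data) gave 3. For the intron-to-exon ratio, a minimum of 1 count gave 6 called between nucleus and cytoplasm in place of 3, and leaving out 1 replicate gave 2 to 4 in place of 6 between wash and cytoplasm. With 1 library left out, the share of all genes called was 26.7 to 33.8% between wash and whole cells and 3.51 to 12.7% between the wash preparations. With 1 replicate left out it was 43.3 to 46% for the ratio between wash and cytoplasm. For the block by prefix it was 32.2%. For the other settings of this section that share is not given, so their counts are no result about the factors. Beyond the factors named in the report, the replicate block changed no call.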
